A study of Mus musculus with 12 samples.

Results

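Transcripts that mark T cells, natural killer (NK) and other cytotoxic lymphocytes, and B cells were examined in sorted CD11b dendritic cells (DCs), cells that present antigen to T cells and here bear CD11b, the integrin chain encoded by Itgam. The set was chosen by name: 34 gene symbols of the 24391 in the count table, of which 17 are T cell markers, 11 are NK or cytotoxic markers and 6 are B cell markers. All 34 were present in the table. A total of 12 RNA-seq libraries came from wildtype C57BL/6J mice aged 8 to 12 weeks, which had aspirated an adenovirus that cannot replicate into the trachea. The vector was either empty (AdCL, the control) or carried a porcine TGF-β1 gene that gives active protein (AdTGFb1). All mice, controls included, therefore received a vector and anaesthesia with xylazine and ketamine. The sample titles give each library a DC number. In experiment 1 the AdCL libraries were DC 7, 8 and 9 and the AdTGFb1 libraries were DC 14, 52 and 54. In experiment 3 the AdCL libraries were DC 943, 944 and 949 and the AdTGFb1 libraries were DC 954, 955 and 956. The organ, the sorting gate, the time after the vector and whether each library is 1 animal are not stated in the labels, so the p-values measure the spread between these libraries, which may be technical.

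T cells recognise antigen through a receptor that signals through the CD3 chains and the kinases Lck and Zap70, with CD4 or CD8 as co-receptor. NK cells and cytotoxic T cells kill with granules that hold perforin and granzymes, and sense targets through lectin-like receptors such as NKG2D (Klrk1) and CD94 (Klrd1). B cells signal through CD79a and CD79b under a program set by Pax5 and Ebf1. Some of these genes are also read in myeloid cells, among them Cd4, which marks a subset of mouse DCs. In a bulk library, fewer cells of a type and less RNA per cell cannot be told apart.

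Library totals ran from 10099912 to 15594546 counts, so that 3 counts, the floor used for a gene without reads, equal 0.181 to 0.31 CPM (counts scaled to a common library size, with TMM factors). The labelled cell type was present in the RNA: per kb of exon, the myeloid integrin genes Itgax and Itgam averaged 203.5 and 78.1 CPM, and the DC genes Zbtb46 and Flt3 averaged 11.1 and 9.15 CPM. The libraries differed in sex. DC 7, 8, 9 and 14 carried Y-linked transcripts and almost no Xist, while the other 8 libraries were female by the same genes. In experiment 1 all 3 AdCL libraries and 1 of 3 AdTGFb1 libraries were male, so vector and sex overlap there, and calls among the 34 genes are given below with a term for sex where that changes them.

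Lymphocyte transcripts were scarce in every library. Together the 34 genes took between 0.00663% and 0.0201% of the counts of a library, the lowest share in DC 52 and the highest in DC 954. Only 4 genes averaged over 10 CPM: Cd4 at 35.4 CPM, Klrk1 at 29.4, Cd2 at 16.5 and Klrd1 at 14.4. These 4 held 73.2% of all counts of the set. Another 14 genes averaged 1 to 10 CPM and 16 averaged under 1 CPM. The median gene of the set averaged 1.03 CPM, against 16.2 CPM for the genes tested. Per kb of exon the order of the leading genes was Klrd1 at 11.2 CPM, Cd2 at 9.50, Cd4 at 8.77 and Klrk1 at 4.09.

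Several genes that define a lymphocyte were among the scarcest. Cd3d, a chain of the T cell receptor complex, had 22 counts over all 12 libraries, and Cd8b1, the beta chain of the CD8 co-receptor, had 9. Nkg7, a granule membrane protein, had 19 counts and Ncr1, the NK receptor NKp46, had 23. Of the B cell genes, the surface protein CD20 (Ms4a1) had 42 counts, of which 41 were in DC 954 alone. Pax5, the factor that holds B cell identity, had 12 counts and Ebf1, which acts before it, had 47. These 7 genes and Prf1 were the 8 that did not pass the low-count filter, and 26 genes were tested. Only 9 of the 34 genes had a read in every library. Of the single values of a gene in a library, 46 of 204 were 0 with AdCL and 84 of 204 with AdTGFb1. The AdCL libraries of experiment 3 had the fewest empty values (18 of 102) and the AdTGFb1 libraries of experiment 1 the most (49 of 102). Totals were 10099912 to 15132731 counts with AdCL and 12201209 to 15594546 with AdTGFb1. The share of empty values over all genes is not given here, and the part of library depth was not tested.

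**Figure D1:**
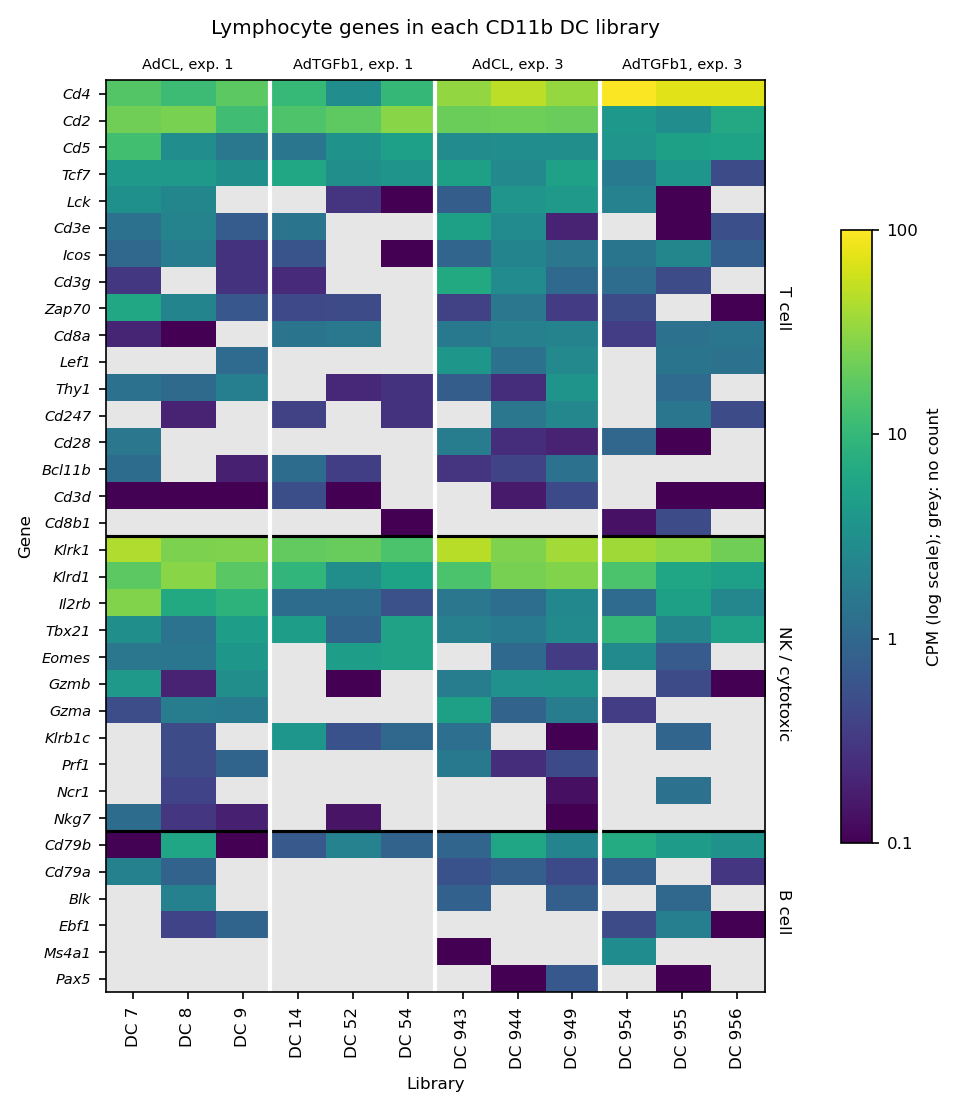
Level of each of the 34 genes (rows, grouped as T cell, NK or cytotoxic, and B cell) in each of the 12 libraries (columns, by vector and experiment), as CPM on a log colour scale, with grey for no count. The rows of Cd4, Cd2, Klrk1 and Klrd1 are filled throughout, most other rows lie near or under 1 CPM, and Gzma, Gzmb and Prf1 are mostly grey in the 6 AdTGFb1 columns.

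Over both experiments, AdTGFb1 was compared with AdCL with the experiment as an additive term (edgeR's quasi-likelihood test, two-sided, Benjamini-Hochberg adjusted over the 13221 genes tested, called at an adjusted p under 0.05). Of the 26 tested genes 0 were higher and 3 were lower with AdTGFb1: the granzymes Gzma and Gzmb and the receptor chain Klrd1, all NK or cytotoxic genes. Over all genes tested 17.2% were called, 6.78% higher and 10.4% lower. Among 15 T cell genes and 3 B cell genes, 0 were called by edgeR, and DESeq2 added Cd2. At an unadjusted p under 0.05 there were 7 genes, 3 of them T cell genes, 4 NK or cytotoxic genes and 0 B cell genes. Of all 13221 genes tested, 3889 were under the same limit. The median log2 fold change of the 26 genes was -1.60, against -0.0019 over all genes, with 19 below 0 and 7 above. Their median SE was 1.24, against 0.294 over all genes, so most single values were imprecise. Because a scarce gene can pass the filter through the group in which it is high, the median is a description only. Gzma and Gzmb, with at most 5 and 6 counts in an AdTGFb1 library, passed the filter through their AdCL libraries alone. This favours a call as lower, so their p-values are descriptive too.

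Gzma and Gzmb encode granzymes A and B, serine proteases that cytotoxic granules deliver into a target cell, and Klrk1 encodes NKG2D, which recognises stress ligands. The 250 bases before the start of these 3 genes are shown because the granzymes were 2 of the 3 genes called over both experiments and Klrk1 had the highest CPM of the cytotoxic genes. They come from RefSeq on GRCm38.p6, a later build than the mm9 of the counts, and are written 5′ to 3′ on the gene's strand, ending just before the start. Capitals mark matches to the short motifs described after them. The windows are, for Gzma, chr13:113100982-113101231, for Gzmb, chr14:56262335-56262584, and for Klrk1, chr6:129623865-129624114, each on the minus strand.
Gzma: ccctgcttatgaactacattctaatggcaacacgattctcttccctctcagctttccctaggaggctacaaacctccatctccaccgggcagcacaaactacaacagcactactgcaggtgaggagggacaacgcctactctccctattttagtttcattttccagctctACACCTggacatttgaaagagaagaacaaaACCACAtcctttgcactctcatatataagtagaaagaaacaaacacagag
Gzmb: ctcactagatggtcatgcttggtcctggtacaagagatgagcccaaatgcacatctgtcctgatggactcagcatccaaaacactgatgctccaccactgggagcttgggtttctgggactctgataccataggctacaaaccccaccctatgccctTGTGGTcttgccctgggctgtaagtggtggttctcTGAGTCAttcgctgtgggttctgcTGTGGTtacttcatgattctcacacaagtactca
Klrk1: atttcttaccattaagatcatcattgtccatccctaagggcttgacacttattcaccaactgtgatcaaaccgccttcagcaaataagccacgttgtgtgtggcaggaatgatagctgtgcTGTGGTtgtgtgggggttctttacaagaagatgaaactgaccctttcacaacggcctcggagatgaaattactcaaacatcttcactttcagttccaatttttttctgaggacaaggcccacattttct

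Counted back from the start, Gzma held the RUNX core letters TGTGGT on the reverse strand at positions -50 to -45 and the T-box letters AGGTGT on the reverse strand at -80 to -75. Gzmb held the AP-1 letters TGANTCA at -58 to -52 and TGTGGT at -93 to -88 and at -34 to -29. Klrk1 held TGTGGT at -129 to -124. Both strands were searched, and the matches do not overlap. Among 32536 distinct promoter windows of the same length, TGTGGT was present in 14.0%, AGGTGT in 11.9% and TGANTCA in 6.73%. The letters GAGGAAGT of PU.1 and TGACGTCA of CRE, present in 2.45% and 1.56% of windows, were in none of these 3. A match is a description of letters, not of a bound site. Of the 34 genes, 23 were in the promoter table.

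The granule genes were close to absent from the AdTGFb1 libraries. Gzma was at 0.517, 1.89 and 1.67 CPM in the AdCL libraries of experiment 1 and at 0 in the 3 AdTGFb1 libraries. Its levels in experiment 3 were 5.09, 0.895 and 1.81 CPM with AdCL, and 0.349, 0 and 0 CPM with AdTGFb1. Every AdCL library thus lay above every AdTGFb1 library, and Gzma was the only tested gene of the set without overlap over both experiments (over all genes, 4.46% were lower and 1.86% higher without overlap). Summed counts were 133 with AdCL and 5 with AdTGFb1, a 33.3-fold difference with an exact 95.0% binomial interval of 13.9 to 104 that covers counting error only. The fitted log2 fold change was -5.25 ± 1.37 (SE), adjusted p = 0.0118 by edgeR. Like Gzmb, Gzma passed the low-count filter through its AdCL libraries alone.

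Gzmb was at 4.24, 0.199 and 3.07 CPM with AdCL and at 0, 0.0716 and 0 CPM with AdTGFb1 in experiment 1. In experiment 3 it was at 1.83, 3.25 and 3.48 CPM with AdCL and at 0, 0.479 and 0.0604 CPM with AdTGFb1. The groups did not overlap within either experiment, while over both DC 955 at 0.479 CPM lay above DC 8 at 0.199. Of all genes, 21.6% were lower without overlap in experiment 1 and 12.9% in experiment 3. Counts were 187 against 8, a 29.2-fold difference (exact 95.0% interval of counting error 14.5 to 68.7), with a log2 fold change of -4.89 ± 1.27 and an adjusted p of 0.0113 by edgeR. Prf1 encodes perforin, which opens the target membrane for granzymes. It had 42 counts in 5 of the 6 AdCL libraries and 0 in all 6 AdTGFb1 libraries. Its AdCL mean was 0.629 ± 0.581 CPM (SD, n = 6), at least 17.9-fold above the level of 3 counts over the 6 AdTGFb1 libraries. It was too scarce for the filter, and without a filter its adjusted p was 0.0412 by edgeR. Summed over the 3 granule genes, a grouping chosen after their values were seen, each AdCL library held 26 to 89 counts and each AdTGFb1 library 0 to 6.

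With a term for sex the log2 fold changes of Gzma and Gzmb over both experiments were -4.79 (adjusted p = 0.0729 by edgeR) and -4.57 (adjusted p = 0.0656), so both lost the call. The sex term rests on experiment 1, where DC 14 is the only male AdTGFb1 library and no AdCL library is female. In experiment 3, where all libraries were female, the groups did not overlap for either gene, but 12.9% of all genes were also lower without overlap. The log2 fold changes there, -4.37 ± 1.88 and -3.95 ± 1.67, had adjusted p-values of 0.208 and 0.194 by edgeR, so neither was called.

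Klrd1 encodes CD94, the partner of the NKG2 receptors. It was at 17.5, 29.1 and 17.3 CPM with AdCL and at 9.31, 3.08 and 5.43 CPM with AdTGFb1 in experiment 1. Experiment 3 gave 14.0, 24.2 and 27.3 CPM with AdCL and 14.3, 5.83 and 4.89 CPM with AdTGFb1. DC 954 at 14.3 CPM reached the lowest AdCL library, and the other 5 AdTGFb1 libraries lay below all AdCL libraries. The mean was 21.6 ± 6.15 CPM with AdCL and 7.14 ± 4.05 CPM with AdTGFb1 (SD, n = 6 each). The log2 fold change was -1.61 ± 0.34, adjusted p = 0.00295 by edgeR, and Klrd1 kept its call with a term for sex. It was -1.84 ± 0.47 in experiment 1 (adjusted p = 0.00616) and -1.39 ± 0.46 in experiment 3 (adjusted p = 0.0804). The difference between these effects was 0.45 ± 0.65 on the log2 scale (adjusted p = 0.767).

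Klrk1 was at 44.2, 25.4 and 26.02 CPM with AdCL and at 19.0, 20.04 and 14.3 CPM with AdTGFb1 in experiment 1. In experiment 3 it was at 48.0, 26.04 and 38.7 CPM with AdCL and at 37.6, 31.0 and 22.2 CPM with AdTGFb1. The groups were apart in experiment 1, where 21.6% of all genes were lower without overlap, and overlapped in experiment 3. The log2 fold change over both was -0.57 ± 0.22 (adjusted p = 0.0848 by edgeR). Il2rb encodes the beta chain shared by the IL-2 and IL-15 receptors. It was at 26.7, 6.56 and 8.74 CPM with AdCL and at 1.14, 1.14 and 0.550 CPM with AdTGFb1 in experiment 1, without overlap. The experiment 3 values were 1.54, 1.22 and 2.55 CPM with AdCL and 1.12, 5.03 and 2.41 CPM with AdTGFb1, with overlap. The 3 AdCL libraries of experiment 1, all male, held its 3 highest values, with DC 7 above the others.

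The remaining NK and cytotoxic genes showed no call. Tbx21 (T-bet), the factor behind type 1 cytotoxic programs, had reads in every library, from 0.930 to 9.90 CPM, with a log2 fold change of 0.84 ± 0.60 (adjusted p = 0.391). Eomes, its relative, ran from 0 to 5.36 CPM and had a log2 fold change of 0.88 ± 1.16 (adjusted p = 0.667). Klrb1c (NK1.1) ran from 0 to 3.79 CPM, with 85 counts with AdTGFb1 against 19 with AdCL, and had a log2 fold change of 1.43 ± 1.78 (adjusted p = 0.645). Of the 8 tested cytotoxic genes, 3 therefore had values above 0, and these were the 3 just named. In experiment 1 Klrb1c was higher with AdTGFb1 without overlap (adjusted p = 0.293 by edgeR), as were 18.8% of all genes.

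**Figure D2:**
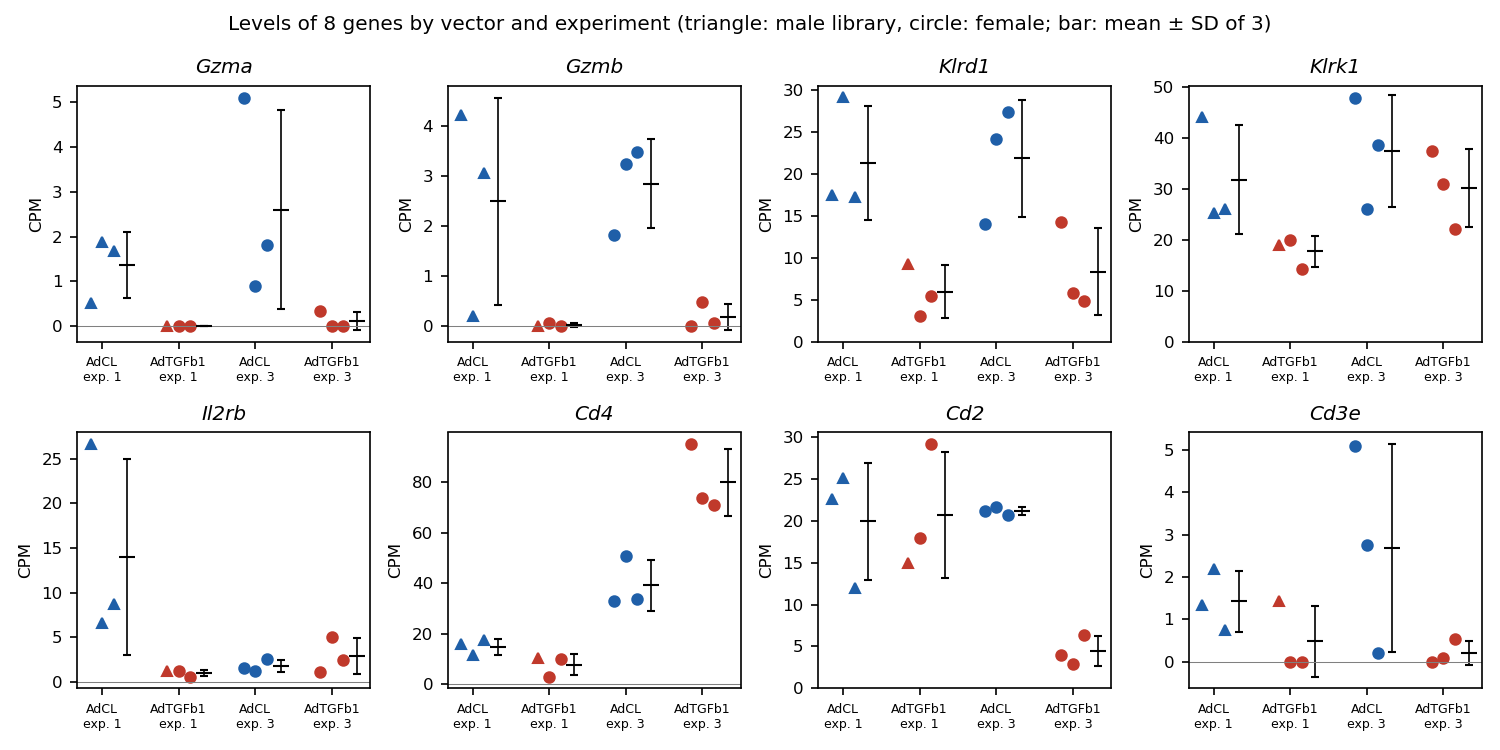
CPM of 8 genes by vector and experiment, 1 point per library (triangle male, circle female) with the mean ± SD of 3 libraries. Gzma and Gzmb are near 0 in the AdTGFb1 groups, Il2rb is high only in the AdCL group of experiment 1 with DC 7 at 26.7 CPM, Cd4 is highest with AdTGFb1 in experiment 3 (71.1 to 95.1 CPM), and Cd2 is lowest there (2.95 to 6.398 CPM).

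Among the T cell genes, Cd4, the co-receptor for MHC class II, was set apart by experiment. It was at 15.7, 11.3 and 17.4 CPM with AdCL and at 10.2, 2.93 and 10.0 CPM with AdTGFb1 in experiment 1. In experiment 3 it was at 32.97, 50.6 and 33.6 CPM with AdCL and at 95.1, 73.6 and 71.1 CPM with AdTGFb1. All 6 libraries of experiment 3 lay above all 6 of experiment 1, and within each experiment the vectors did not overlap, in opposite directions. Of all genes, 21.6% were lower without overlap in experiment 1 and 11.5% higher in experiment 3. Experiment 3 against experiment 1 gave a log2 fold change of 2.38 ± 0.36 (adjusted p = 0.000763 by edgeR). It was the only call among the 26 genes in that comparison and the only one without overlap. Of all genes 6.43% were called there, 3.57% higher and 2.86% lower, and 1.18% were higher without overlap. The call held with a term for sex, which added Cd2, with a log2 fold change of -2.005 (adjusted p = 0.0225). The vector effect was -0.94 ± 0.34 in experiment 1 (adjusted p = 0.0464) and 1.03 ± 0.32 in experiment 3 (adjusted p = 0.0587).

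Cd2, an adhesion receptor of T and NK cells, differed by vector in experiment 3. It was at 22.6, 25.2 and 12.0 CPM with AdCL and at 14.9, 17.9 and 29.2 CPM with AdTGFb1 in experiment 1. Experiment 3 gave 21.1, 21.6 and 20.6 CPM with AdCL and 3.98, 2.95 and 6.398 CPM with AdTGFb1. The vectors overlapped in experiment 1 and were apart in experiment 3, where 12.9% of all genes were lower without overlap. The AdCL mean of Cd2 there was 21.1 ± 0.507 CPM and the AdTGFb1 mean 4.44 ± 1.77 CPM (SD, n = 3 each). The log2 fold change was 0.05 ± 0.37 in experiment 1 (adjusted p = 0.938 by edgeR) and -2.24 ± 0.40 in experiment 3 (adjusted p = 0.000922). Over both experiments it was -1.08 ± 0.40 (adjusted p = 0.0754), and with a term for sex -1.55 (adjusted p = 0.00935).

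The chains of the T cell receptor complex summed to 4.22 to 11.8 CPM in the AdCL libraries of experiment 3 and to at most 2.57 CPM in every other library. Cd3e was at 1.34, 2.19 and 0.743 CPM with AdCL and at 1.44, 0 and 0 CPM with AdTGFb1 in experiment 1, and at 5.09, 2.77 and 0.201 CPM against 0, 0.0798 and 0.543 CPM in experiment 3. Cd3g reached 6.73 CPM in DC 943 and was at 0 in 4 libraries. Cd247, the zeta chain, was at 0 in 5 libraries. With Cd3d, the 4 chains had 54 counts with AdCL and 39 with AdTGFb1 in experiment 1, and 275 against 62 in experiment 3, so that their AdCL counts came mostly from experiment 3. The log2 fold changes over both experiments were -2.57 ± 1.36 for Cd3e (adjusted p = 0.223 by edgeR), -2.08 ± 1.29 for Cd3g (adjusted p = 0.311) and 0.10 ± 1.21 for Cd247 (adjusted p = 0.968).

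The signalling kinases followed with similar uncertainty. Lck, the kinase that starts receptor signalling, averaged 2.37 ± 1.67 CPM with AdCL and 0.433 ± 0.854 CPM with AdTGFb1 (SD, n = 6 each), with a log2 fold change of -2.83 ± 1.34 (adjusted p = 0.167 by edgeR). Zap70, which it activates, averaged 1.88 ± 2.20 against 0.251 ± 0.254 CPM, with a log2 fold change of -2.61 ± 1.22 (adjusted p = 0.158). Thy1, a surface protein of T cells, averaged 1.49 ± 1.16 against 0.268 ± 0.434 CPM (adjusted p = 0.213). The co-stimulatory receptor genes Cd28 and Icos had 40 counts against 15 and 93 against 73. Neither Cd5, a brake on receptor signalling at 4.30 ± 4.06 against 4.02 ± 1.47 CPM, nor Tcf7, a factor of T cell development at 4.05 ± 1.02 against 3.10 ± 1.902 CPM, was called. Lef1, a relative of Tcf7, was at 0 in 2 AdCL and 4 AdTGFb1 libraries. Bcl11b, which commits cells to the T lineage, had 41 counts against 20, and none in the 3 AdTGFb1 libraries of experiment 3.

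Cd8a, the alpha chain of CD8, is also a gene of one DC subset. It averaged 1.03 ± 1.04 CPM with AdCL and 1.04 ± 0.682 CPM with AdTGFb1 (SD, n = 6 each), and all of the 9 counts of Cd8b1 were in AdTGFb1 libraries. Without Cd4 and Cd2, the other 15 T cell genes summed to 23.9 ± 8.68 CPM with AdCL and to 12.2 ± 3.30 CPM with AdTGFb1, and the libraries overlapped (10.0 to 32.96 against 9.21 to 18.0 CPM). The removal of these 2 genes was chosen after their values were seen.

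B cell genes were not called in any comparison by edgeR, at 0 of 3, and DESeq2 called Cd79a in experiment 1. Cd79b ran from 0.0929 to 7.04 CPM, with 179 counts with AdCL and 265 with AdTGFb1. Its log2 fold change was 0.01 ± 1.10 (adjusted p = 0.998 by edgeR), and it turned sign with other size factors. Its partner Cd79a did not track it: it had 52 counts against 17, and 0 in the 3 AdTGFb1 libraries of experiment 1, with a log2 fold change over both of -2.85 ± 1.76 (adjusted p = 0.307). Blk, a Src-family kinase of B cells, had 42 counts against 13 in 4 libraries (adjusted p = 0.41). The highest counts of single genes were scattered over libraries: DC 954 held 41 of the 42 counts of Ms4a1, DC 955 held 25 of the 47 counts of Ebf1, and DC 949 held 10 of the 12 counts of Pax5.

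**Figure D3:**
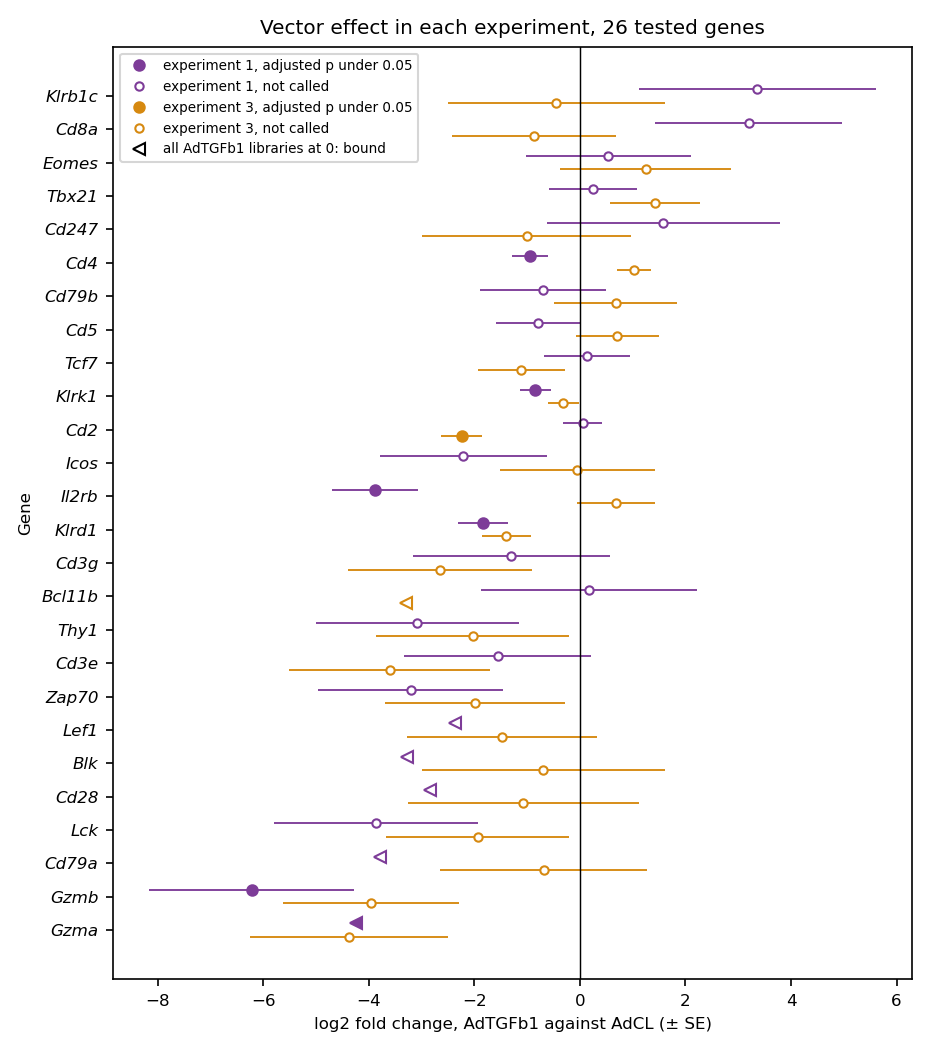
Log2 fold change ± SE of AdTGFb1 against AdCL in each experiment for the 26 tested genes, ordered by their effect over both. Filled points passed an adjusted p under 0.05, and left-pointing triangles mark a bound where all AdTGFb1 libraries were at 0. Filled points number 6 in experiment 1 and 1 in experiment 3, Cd4 lies on opposite sides of 0 in the experiments, and Klrd1 lies below 0 in both.

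Within experiment 1, 0 of the 26 genes were called higher and 6 lower: Cd4, Gzma, Gzmb, Il2rb, Klrd1 and Klrk1. Over all genes 24.7% were called, 10.6% higher and 14.1% lower. The log2 fold change of Il2rb was -3.88 ± 0.82 (adjusted p = 0.00119 by edgeR) and that of Klrk1 was -0.84 ± 0.30 (adjusted p = 0.0428). Gzma was at least 18.9-fold lower, taking 3 counts over the group as the floor (adjusted p = 0.0278). Gzmb had 76 counts against 1, a ratio of 104 with an exact 95.0% interval of counting error from 18.1 to 4162 (adjusted p = 0.0217). Of the tested genes, 1 was higher (Klrb1c) and 8 were lower without overlap, against 18.8% and 21.6% of all genes. None of the 6 kept its call with a term for sex. With that term 3 of the 26 genes, and 3209 of all 13221, had an unadjusted p under 0.05. The adjusted p-values of the 6 were then 0.0923 for Il2rb, 0.184 for Gzmb, 0.268 for Gzma, 0.286 for Klrd1, 0.323 for Klrk1 and 0.526 for Cd4. Il2rb and Klrd1 kept their calls without any 1 of the 12 libraries. The count fell to 3 without DC 7, 14, 52 or 54.

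Within experiment 3, 0 genes were higher and 1 was lower, Cd2. Of all genes 6.43% were called, 1.97% higher and 4.46% lower. Of the tested genes, Cd4 and Cd5 were higher and 5 were lower without overlap (Cd8a, Cd2, Bcl11b, Gzma and Gzmb), against 11.5% and 12.9% of all genes. At an unadjusted p under 0.05 there were 6 genes, against 2428 of all 13221. Cd4 (log2 fold change 1.03, adjusted p = 0.0587 by edgeR) was called higher by DESeq2 (adjusted p = 0.0406) and without the low-count filter (adjusted p = 0.00274). It was also called by edgeR without DC 8 (adjusted p = 0.0496), DC 14 (0.0485), DC 52 (0.0106) or DC 944 (0.0496).

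The vector effect differed between experiments for 3 of the 26 genes (interaction, experiment 3 minus experiment 1), 2 higher and 1 lower. Of all genes 6.02% were called, 3.43% higher and 2.59% lower. The difference was 1.97 ± 0.47 on the log2 scale for Cd4 (adjusted p = 0.0128 by edgeR), 4.56 ± 1.09 for Il2rb (adjusted p = 0.0131) and -2.30 ± 0.54 for Cd2 (adjusted p = 0.0119). For Gzma and Gzmb it was 2.76 ± 2.15 (adjusted p = 0.51) and 2.26 ± 2.19 (adjusted p = 0.621). With a term for sex the adjusted p-values were 0.22 for Cd4, 0.191 for Il2rb and 0.183 for Cd2. Without DC 7 that of Il2rb was 0.124, and without DC 54 that of Cd2 was 0.054.

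Markers of other cells that a sort of DCs could hold differed between the groups, and their part in the results was not tested. In experiment 1, 14.1% of all genes were called lower and 10.6% higher. The shares were 4.46% and 1.97% in experiment 3, and 10.4% and 6.78% over both experiments. Calls of these and of the later lists are given without a term for sex, which overlaps with the vector in experiment 1. Of 12 endothelial genes, 9 were lower with AdTGFb1 in experiment 1, where their summed level was 229 to 690.3 CPM with AdCL and 32.2 to 57.5 CPM with AdTGFb1. In experiment 3 the ranges overlapped and lay higher with AdTGFb1, at 46.7 to 121.3 against 103.7 to 202.9 CPM, with 0 of 12 called by edgeR. Cdh5 and Ptprb, the endothelial genes with the highest CPM, had log2 fold changes of -3.47 ± 0.47 and -5.94 ± 0.62 in experiment 1, and of 1.36 ± 0.45 and 0.54 ± 0.49 in experiment 3. Of 11 fibroblast genes, 8 were lower in experiment 1 (160.9 to 431.1 against 34.2 to 82.7 CPM). In experiment 3, 1 was higher, the collagen gene Col3a1 at 1.56 ± 0.43 (adjusted p = 0.0305), and 0 were lower (51.4 to 85.0 against 48.8 to 140.8 CPM). Over both experiments Inmt (adjusted p = 0.0315) and Mfap4 (adjusted p = 0.0457) were the fibroblast genes called, both lower, and Mgp was not called. Of 12 epithelial genes 5 were lower and 1 higher in experiment 1 (137.3 to 516.1 against 164.6 to 294.3 CPM), and 0 were called in experiment 3 (113.4 to 181.4 against 95.9 to 152.2 CPM). Scgb1a1, of club cells, was called lower over both (adjusted p = 0.0327), and Cdh1 was not (adjusted p = 0.181). The male AdCL libraries of experiment 1, in which Il2rb was high, had the highest endothelial and fibroblast sums. Among them the order differed. DC 7 had the highest Il2rb (26.7 CPM) and the lowest sums (229 and 161 CPM). DC 8 had the lowest Il2rb (6.56 CPM) and the highest sums (690 and 431 CPM).

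The summed levels of the platelet list and of the mast cell and basophil list were lower with AdTGFb1 without overlap in both experiments. Over both experiments, 10.4% of all genes were called lower and 6.78% higher. The platelet sum was 59.0 to 90.7 CPM with AdCL and 19.2 to 28.5 CPM with AdTGFb1 in experiment 1, and 42.1 to 49.0 against 30.9 to 36.6 CPM in experiment 3. Over both experiments 1 of 7 platelet genes was called, Tubb1, a platelet tubulin, at -3.23 ± 0.72 (adjusted p = 0.00433 by edgeR), while Pf4 (adjusted p = 0.662) and Itga2b (adjusted p = 0.0859) were not. The sum for mast cells and basophils was 178.4 to 291.1 against 46.0 to 75.9 CPM in experiment 1, and 139.5 to 180.2 against 99.3 to 119.1 CPM in experiment 3. Most of that sum was Kit, which averaged 128.3 CPM, against 7.93 for Hdc and 3.86 for Gata2. The markers Cpa3, Mcpt8, Fcer1a, Ms4a2, Prss34, Tpsb2 and Cyp11a1 had no count in any library, so the sum describes Kit more than these cells. Of the 3 tested genes of the list, 2 were lower over both: the stem cell factor receptor gene Kit at -1.27 ± 0.22 (adjusted p = 0.000437) and Hdc, which makes histamine, at -1.61 ± 0.48 (adjusted p = 0.0246). The neutrophil sum overlapped in both experiments, at 41.7 to 60.6 against 48.9 to 60.03 CPM and 73.4 to 106.4 against 66.6 to 80.6 CPM. Most of it was Csf3r, which averaged 44.5 CPM, against 8.76 for S100a9. Of 8 neutrophil genes tested, S100a9 was lower over both experiments at -4.23 ± 0.64 (adjusted p = 0.000152), with 9.94 to 28.4 CPM with AdCL and 0 to 2.96 CPM with AdTGFb1. Csf3r was higher at 0.61 ± 0.18 (adjusted p = 0.0275). The median log2 fold change of the 8 was -2.41. In experiment 3 it was -3.26, with 0 called higher and 3 lower, where 1.97% and 4.46% of all genes were. Of 11 CD11b DC genes, 8 were lower with AdTGFb1 and 1 higher over both experiments. The lower genes include Zbtb46 (-1.63 ± 0.17), Flt3 (-1.30 ± 0.15), the homing receptor Ccr7 (-1.69 ± 0.14) and the antigen presentation genes Cd74 (-0.43 ± 0.12) and H2-Ab1 (-0.42 ± 0.11).

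**Figure D4:**
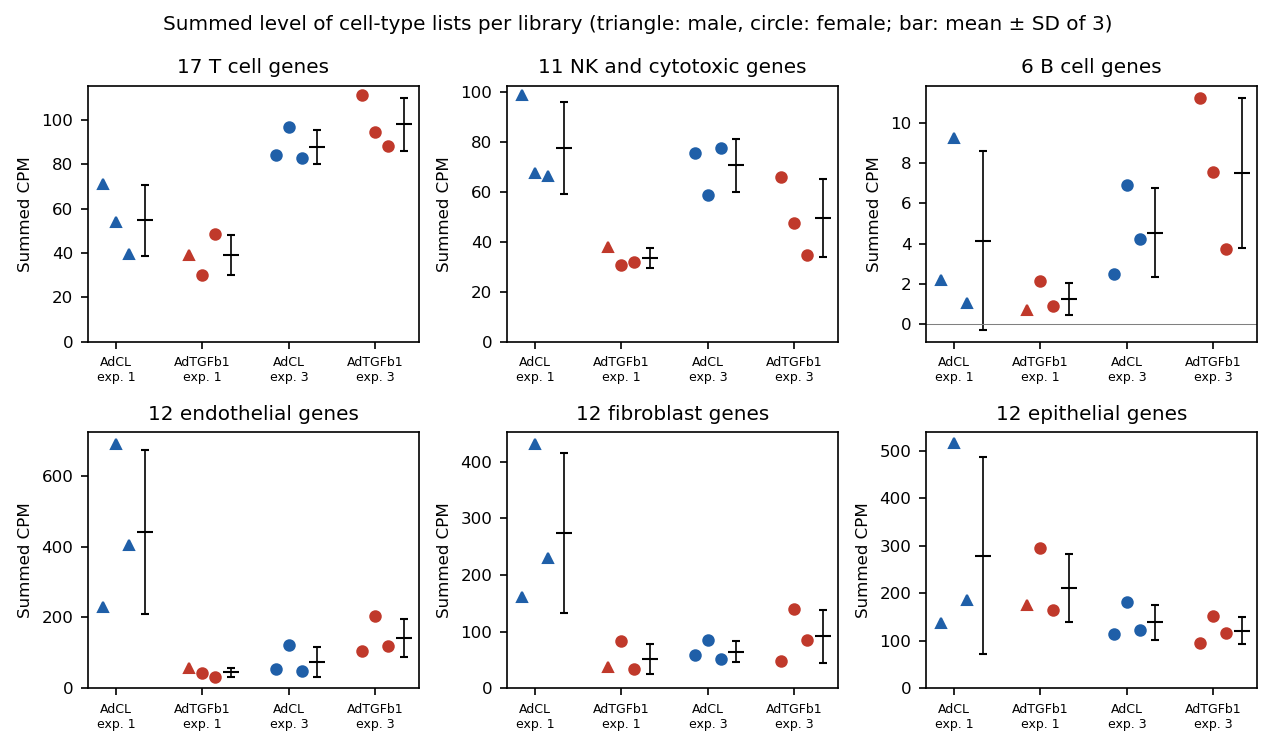
Summed CPM of the T, NK and B cell genes and of lists for other cell types, 1 point per library by vector and experiment (triangle male, circle female; bar mean ± SD of 3). The cytotoxic sum is 66.4 to 98.9 CPM with AdCL and 30.7 to 37.9 CPM with AdTGFb1 in experiment 1 but overlaps in experiment 3 (58.6 to 77.7 against 34.8 to 65.9 CPM), and the endothelial sum is highest in the AdCL libraries of experiment 1.

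Further lymphocyte genes, from lists that like the 34 were written with earlier results of these data known, are given by counts and by the few genes named by rule. Over all genes, 6.78% were called higher and 10.4% lower over both experiments, the rates beside which these counts stand. Of 16 other T cell genes tested, 0 were higher and 4 lower over both experiments. Il7r, the IL-7 receptor, had the highest CPM of the list, at 352 ± 14.9 CPM with AdCL and 165 ± 34.8 CPM with AdTGFb1 (SD, n = 6 each), a log2 fold change of -1.09 ± 0.13 (adjusted p = 1.1e-05 by edgeR). Il2ra, the alpha chain of the IL-2 receptor, was at 88.1 ± 21.8 against 45.7 ± 19.0 CPM (adjusted p = 0.00786), and the orphan receptor gene Gpr171 at 69.5 ± 10.4 against 37.2 ± 10.0 CPM (adjusted p = 0.00211). Per kb of exon the 3 averaged 55.4, 11.71 and 24.0 CPM in that order, against 0.294 for Cd3e and 0.333 for Cd3g.

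Of 10 other NK or cytotoxic genes tested, 0 were higher and 2 lower. Cd244, the receptor 2B4, was at 56.1 ± 15.59 CPM with AdCL and 25.0 ± 5.47 CPM with AdTGFb1 (SD, n = 6 each; adjusted p = 9.22e-05 by edgeR). S1pr5, a receptor that guides NK cells out of tissue, was at 4.34, 1.39, 2.04, 0.288, 0 and 2.14 CPM in the AdCL libraries and at 0 in all 6 AdTGFb1 libraries. It was at least 48.3-fold lower against a floor of 3 counts over the group (adjusted p = 0.0109). S1pr5 passed the low-count filter through its AdCL libraries alone. Ccl5, a chemokine of cytotoxic cells and of DCs, was not called, at 103 ± 35.7 against 94.6 ± 49.6 CPM (adjusted p = 0.751). Klra1, Klra4, Klra8, Klrc2, Klrg1 and Cd160 were at 0 in every library, as were Sh2d1a of the T cell list and Vpreb3 of the B cell list.

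Of 17 other B cell genes tested, 1 was higher and 5 lower, where 6.78% and 10.4% of all genes were. Cxcr5, the receptor that leads B cells to follicles, was at 32.1 ± 6.76 CPM with AdCL and 9.05 ± 5.55 CPM with AdTGFb1 (SD, n = 6 each), a log2 fold change of -1.89 ± 0.30 (adjusted p = 0.00022 by edgeR). H2-Ob, a chain of the antigen-loading modifier H2-O, had a log2 fold change of -1.25 ± 0.30 (adjusted p = 0.00654). Cd22, an inhibitory lectin, was the gene that rose, with a log2 fold change of 1.903 ± 0.44 (adjusted p = 0.00565). Cd72 and Blnk, with the highest CPM of the list, were not called (adjusted p = 0.203 and 0.592).

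Of 7 plasma cell genes tested, 0 were higher and 2 lower. Pou2af1, a B cell co-activator counted with both lists, had reads in 5 of 6 AdCL libraries and in none with AdTGFb1, at least 38.3-fold lower (adjusted p = 0.0135 by edgeR). It too passed the low-count filter through its AdCL libraries alone. Prdm1 (Blimp-1) had a log2 fold change of -0.38 ± 0.12 (adjusted p = 0.034). For Sdc1 it was 0.23 ± 0.41 (adjusted p = 0.749), with 1.40 ± 0.36 in experiment 1 (adjusted p = 0.00591). Of 7 genes of type 2 innate lymphoid cells, 1 was lower over both experiments, the IL-33 receptor gene Il1rl1 at -0.77 ± 0.21 (adjusted p = 0.0136). Il5 was at 0 in every library, and Il13 and Il17rb had 4 and 6 counts. In experiment 1, 1 of the 7 was higher and 2 were lower, where 10.6% and 14.1% of all genes were. The experiment 1 effects given here, that of Sdc1 included, were fitted without a term for sex, which overlaps with the vector there. Arg1, arginase 1, which macrophages also make, was at 0.298 to 15.61 CPM with AdCL and 280 to 726 CPM with AdTGFb1 there. Its log2 effect was 6.33 ± 0.92 in experiment 1 (adjusted p = 2.56e-05), against -2.28 ± 0.92 in experiment 3 (adjusted p = 0.168). Hpgds, a prostaglandin synthase gene, had -1.63 ± 0.31 in experiment 1 (adjusted p = 0.000501) and 0.44 ± 0.30 in experiment 3 (adjusted p = 0.498).

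Of 9 plasmacytoid DC genes 0 were called by edgeR over both experiments, among them Tcf4 (adjusted p = 0.338) and Runx2 (adjusted p = 0.51), which had the highest CPM. Of 27 genes of antigen receptor signalling, many of which DCs also read, 3 were higher and 4 lower, where 6.78% and 10.4% of all genes were. Malt1 had a log2 fold change of -1.08 ± 0.11 (adjusted p = 3.49e-06), Fyn of -1.01 ± 0.12 (adjusted p = 9.8e-06) and Syk of -0.59 ± 0.10 (adjusted p = 0.000628). The higher genes, named after their values were seen, were Dok3 at 1.08 (adjusted p = 0.00125), Rasgrp1 at 0.61 (adjusted p = 0.00651) and Fcer1g at 0.46 (adjusted p = 0.00757). Ptprc (CD45), with a high CPM in every library, was not called (adjusted p = 0.0585). The constant-region genes of the T cell receptor and of immunoglobulins were not analysed here.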

How the data were processed

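RNA-seq of 12 sorted CD11b DC libraries was used (poly(A) selection and a directional kit, per the labels' protocols). Per the submitters' processing notes, the tools were STAR 2.5.0c and HTSeq, with cutadapt 1.9.1 and Trim Galore 0.4.1, and DESeq2, FastQC 0.11.4 and bcl2fastq, on build mm9, with no roles given. The authors deposited raw read counts for 24391 gene symbols. The strand setting of the counting is not given in the sources used here. Exons of Cd3e, Cd247, Eomes, Lef1, Lck, Pax5 and Klrb1c overlap another gene in GENCODE M21 (used for exon length only), so their reads are uncertain.

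Counts were analysed in R 4.3.3 with edgeR 4.0.16 (TMM, filterByExpr with a minimum count of 10 on the 4 groups, quasi-likelihood F test). This left 13221 genes, and 7100 had no count. The SE is the effect over the square root of F. A model of 4 groups gave effects within experiments and the interaction. The procedure was run on simulated counts that held changes by vector only, with no effect of experiment or sex. Scarce genes were not looked at apart there. The simulation thus does not bear on them or on the overlap of vector and sex. Members and lists were chosen with earlier results of these data known. All 34 members are named. Of other lists, up to 3 called genes with the smallest adjusted p and up to 2 with the highest mean are named, with the defining markers at 0. Alternatives were other size factors, DESeq2 1.42.0, no filter, a sex term, no experiment term and each library left out.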

Additional observations from a re-analysis of the deposited data

Results flagged for a closer look

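Of the 26 tested genes, each vector's 6 libraries were examined for a single library far from the rest (52 groups, Dixon's 95% criterion). This marked 15 values, where chance alone marks about 1 in 20 groups, and values of scarce genes are often uneven. Of these, 14 were the highest of their group, and 10 were in AdTGFb1 libraries.

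Among T cell genes, DC 7 stood above the other AdCL libraries for Zap70 (6.10 CPM) and Cd5 (12.5 CPM), and DC 9 stood below them for Cd2 (12.0 CPM). Among AdTGFb1 libraries, DC 954 stood apart for Lck (2.16 CPM) and Cd28 (0.976 CPM), DC 955 for Cd247 (1.52 CPM) and Thy1 (1.12 CPM), and DC 14 for Bcl11b (1.14 CPM). Among cytotoxic genes, DC 7 was apart for Il2rb (26.7 CPM) and DC 943 for Gzma (5.09 CPM) with AdCL. With AdTGFb1, DC 954 was apart for Gzma (0.349 CPM), DC 955 for Gzmb (0.479 CPM) and DC 14 for Klrb1c (3.79 CPM). Among B cell genes, DC 954 was apart for Cd79a (0.837 CPM) and DC 955 for Blk (1.04 CPM).

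The vector effect differed between the experiments, by the interaction term, for Cd4 (1.97 on the log2 scale, experiment 3 minus experiment 1), Cd2 (-2.30) and Il2rb (4.56).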

How the results depend on the processing

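No paired analysis was possible because the DC numbers in the labels are not shared between groups. Over both experiments 3 of the 26 genes were called, and 5 without the low-count filter, Cd2 and Prf1 being added. With a term for sex 2 were called, Klrd1 and Cd2, while Gzma and Gzmb lost their calls. Over all genes, 2271 were called, and 1501 with a term for sex. In experiment 1 the 6 called genes became 0 with a term for sex, and all genes called went from 3264 to 1296. Leaving out 1 library gave 3 to 5. In experiment 3 the 1 called gene became 3 with DESeq2 (Cd4 higher and Gzmb lower added) and 3 without the filter (Cd4 higher and Klrd1 lower added), and 1 to 2 with a library left out, while all genes called (850) ranged from 498 to 871. For the interaction the 3 called genes became 0 with a term for sex. With that term 5 of the 26 genes, and 1821 of all 13221, had an unadjusted p under 0.05. All genes called (796) became 1286 with DESeq2, 1222 without the filter and 157 with a term for sex, and 530 to 956 with a library left out. For experiment 3 against 1 the 1 called gene became 3 with DESeq2 and 2 with a term for sex, and 1 to 2 with a library left out. All genes called (850) became 1346 with DESeq2 and 547 with a term for sex. The sex term leaves fewer comparisons within experiment 1, where the AdCL libraries are all male and vector and sex overlap. The cause of the changes, those with a term for sex included, was not tested.

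Of the uncalled effects over both experiments, 4 turned sign. Cd247 was -0.68 without the experiment term and -0.24 to 0.67 with a library left out. Cd5 was 0.039 with a term for sex and -0.17 to 0.65 with a library left out. Cd79b was -0.0038 with DESeq2's size factors in edgeR, -0.0079 with DESeq2 and -0.27 to 1.63 with a library left out, and Cd4 ranged from -0.11 to 0.38. The calls of Gzma, Gzmb and Klrd1 over both experiments, of Cd2 in experiment 3 and of Cd4 between experiments were kept with each of the 12 libraries left out. Those of Gzma and Gzmb were lost with a term for sex. In experiment 1, Cd4 lost its call without DC 7, 9, 52, 944, 949, 954, 955 or 956, Gzma without DC 8, 9, 14, 52, 54 or 943, Gzmb without DC 7, 14 or 54, and Klrk1 without DC 7, 14, 52, 54 or 949. Cd2 gained a call over both experiments without DC 9 or 54, and Lck without DC 954 (adjusted p = 0.0431 by edgeR).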
